A study of Arabidopsis thaliana with 8 samples.

Results

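The probes described here gave their highest mean log2 signal in the induced ANAC096 line without abscisic acid (ABA). By group means as measured, dim signals included, the signal was at least 4-fold lower in each of the other 3 groups of seedlings. These probes are 79 of the 43603 non-control probes of an Arabidopsis oligonucleotide array. The members were selected on the measured values themselves. The level of a probe is the log2 processed signal minus the 75th percentile of its array, so that 0 is that percentile. A member had an ANAC096 mean at least 2 log2 units above the mean of control, of ABA and of ANAC096+ABA, a difference between ABA and control above -1 and below 2, and an ANAC096 mean of at least -6, which is 64-fold below the percentile. These 4 differences chose the members. They are given as a description with no test.

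All seedlings were Arabidopsis thaliana Col-0, 12 days old, and had been raised in liquid MS medium at 23 °C under days of 16 h light and 8 h dark. Control and ABA seedlings carried the empty pTA vector, and ANAC096 and ANAC096+ABA seedlings carried pTA-ANAC096. Every group received 30 µM dexamethasone for 1 h, and no array without dexamethasone was analysed here. In the ABA and ANAC096+ABA groups, 2 µM ABA was present during the last 30 min. Each of the 4 groups had 2 arrays, described by the submitters as biological replicates. How many independent transgenic lines or pooled seedlings stood behind an array is not given in the sources used here. The p-values thus reflect only how far these arrays differed, which may be technical in part. A difference between the lines that was present before dexamethasone cannot be told apart from one made by it. The RNA came from whole seedlings, in which fewer cells of a type and less RNA per cell cannot be told apart.

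NAC proteins are plant transcription factors that share a conserved DNA-binding domain at the amino terminus, and many act in drought, salt and osmotic stress, in senescence and in development. ABA is the hormone of water deficit. Its receptors, when bound, inhibit protein phosphatases and so release kinases of the SnRK family, which phosphorylate bZIP transcription factors at ABA-responsive promoters. In vectors of the pTA kind, dexamethasone generally activates a chimeric transcription factor with a steroid receptor domain, which in turn switches on the transgene. The series asked how ANAC096 and ABA act together on the transcriptome. The scanner files identify probes only by the maker's identifier, and 0 of them were paired with a gene in the reference table used here. The members are therefore named by probe, with no gene, function or sequence, and the tissue and the induction of ANAC096 could not be checked through marker genes.

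On each array 32732 to 34814 probes were well above background, processed signals had a 75th percentile of 5252 to 8128, and 0 spots were saturated. The arrays lay on 1 slide. The arrays without ABA were in slide row 1 and those with ABA in row 2, and the empty-vector line was in columns 1 and 2 and the ANAC096 line in columns 3 and 4. Row and ABA, and column and line, cannot be told apart. The median signal of the negative-control spots was 5.89 to 7.47 without ABA and 9.78 to 11.7 with it.

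The ANAC096 mean level of the 79 members ran from -5.99 to 4.87 with a median of -4.12. ANAC096 exceeded control by 2.02 to 7.50 (median 3.26), ABA by 2.04 to 7.14 (median 3.29) and ANAC096+ABA by 2.04 to 7.93 (median 3.29), all on the log2 scale. The rule held the difference between ABA and control above -1 and below 2, and it ran from -0.91 to 1.48 with a median of 0.06. In 75 of the 79 that difference was within 1 log2 unit. Both ANAC096 arrays lay above the other 6 arrays in 71 members. The same order was found in 12.0% of all 43603 probes, but the rule chose for it and nothing is read from the count.

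The 79 were of 2 kinds. In 62 the replicate ANAC096 arrays differed by 0.90 or less, with a median gap of 0.09, and both lay above the other 6 arrays in all 62. In the other 17 the replicates differed by 1.77 to 8.30, with a median of 4.70. The brighter replicate was ANAC096 array 1 in 11 of the 17 and array 2 in 6. Both ANAC096 arrays were above the other 6 in 9 of the 17. All 17 were represented by a single spot, against 32 of the 62 (51.6%) and 58.6% of all probes.

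**Figure D1:**
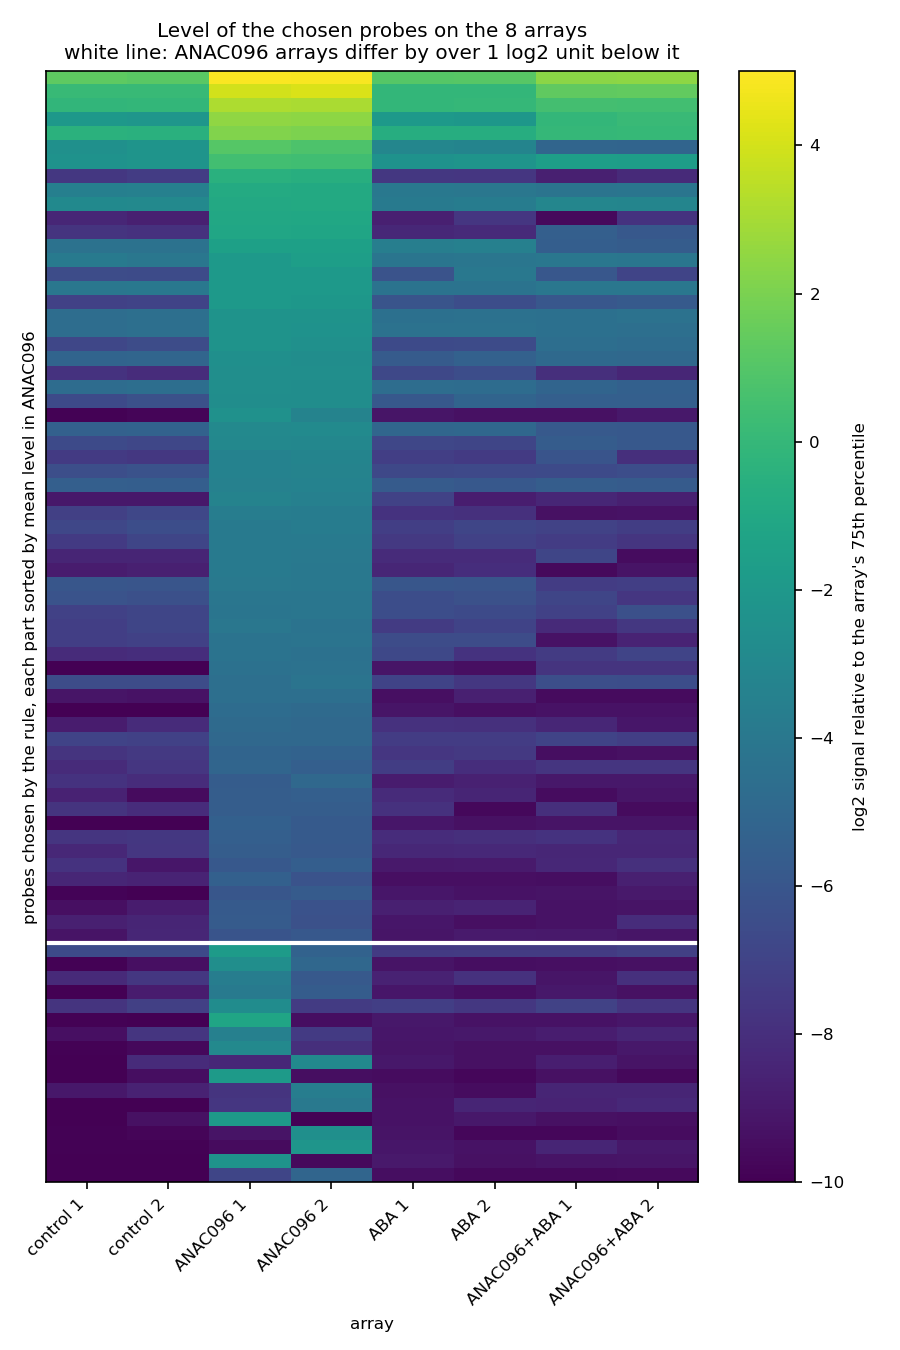
Level of the 79 chosen probes (rows, sorted by mean ANAC096 level within each kind) on each of the 8 arrays (columns), as log2 signal relative to the 75th percentile of the array. The 62 probes above the white line are bright on both ANAC096 arrays, and the 17 below it differ between them by 1.77 to 8.30.

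Signal over background limits how deep the troughs can be measured. The members were well above background on both ANAC096 arrays in 67 of 79, on both control arrays in 38, on both ABA arrays in 28 and on both ANAC096+ABA arrays in 25. On all 8 arrays 22 members were measured, and all 22 belonged to the 62 with matching replicates. In those 22, ANAC096 exceeded control by 2.02 to 5.01 (median 2.69), ABA by 2.04 to 4.50 (median 2.85) and ANAC096+ABA by 2.05 to 6.08 (median 2.45). In a further 20 members the 2 ANAC096 arrays were the only ones well above background.

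Where a group was not well above background on either array, only a bound can be given, and it applies to the processed signal as scaled here. It sets the ANAC096 mean against, on each array of the dim group, either the signal of the probe itself or that of the dimmest probe still called well above background, whichever is higher. Among the 62, the bound over control was at least 5.96-fold to at least 181-fold in 20 members, with a median bound of 10.6. Over ABA it was at least 3.35-fold to at least 120-fold in 30 members (median 5.95). Over ANAC096+ABA it was at least 4.11-fold to at least 187-fold in 29 members (median 7.83).

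The members with the widest gap between the lower ANAC096 array and the highest of the other 6 show the pattern at its plainest. A_84_P787940 stood at -7.58 and -7.34 in control, -0.48 and -0.57 in ANAC096, -7.55 and -7.64 in ABA, and -8.69 and -8.20 in ANAC096+ABA. Both ANAC096 arrays were far above a low and narrow remainder, with a gap of 6.78. It was well above background in control and ANAC096 and on no array with ABA, so ANAC096 was 123-fold over control, at least 120-fold over ABA and at least 187-fold over ANAC096+ABA. A_84_P602531 stood at -8.37 and -8.70 in control, -1.02 and -1.06 in ANAC096, -8.71 and -7.65 in ABA, and -9.64 and -7.83 in ANAC096+ABA. Its other 6 arrays were all dim and its ANAC096+ABA replicates lay apart, and ANAC096 was at least 181-fold over control, at least 84.1-fold over ABA and at least 115-fold over ANAC096+ABA.

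A_84_P765960 read -9.91 and -9.80 in control, -2.40 and -3.31 in ANAC096, -9.13 and -9.32 in ABA, and -9.32 and -9.04 in ANAC096+ABA. Its ANAC096 arrays were nearly 1 log2 unit apart, and of its 26 neighbouring spots on the slide 6 were brighter by over 1 log2 unit on ANAC096 array 1 and 4 on array 2. That difference between its ANAC096 arrays, 0.90, was the largest among the 62. Its spot lay in row 73 of grid column 163. In row 75 of the same column lay A_84_P122432, 1 of the 17 with unmatched replicates, also brighter on array 1. A_84_P115542 read -8.88 and -8.69 in control, -3.87 and -3.97 in ANAC096, -8.41 and -8.06 in ABA, and -9.61 and -9.19 in ANAC096+ABA. Here the replicates matched, and no array outside ANAC096 was well above background. A_84_P832272 read -10.19 and -10.21 in control, -4.72 and -4.84 in ANAC096, -9.17 and -9.40 in ABA, and -9.28 and -9.26 in ANAC096+ABA, and A_84_P850023, at -4.50 and -4.54 in ANAC096, was -8.68 or lower on the other 6 arrays. A_84_P850023 had 1 spot, flagged as an outlier on 2 arrays, counted as well above background on only 1 ANAC096 array, and was not tested. Of the remaining members with the widest gaps, A_84_P812910 stood at -3.31 and -3.44 in ANAC096 against -7.02 or lower elsewhere. A_84_P847276 was at -2.56 and -5.00 in ANAC096 and at -9.21 or lower elsewhere, so that its size rested on which ANAC096 array was read.

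At the other end, the members just inside the limit of 2 for the smallest of the 3 differences were A_84_P11776 with 2.023, A_84_P552006 with 2.030 and A_84_P812905 with 2.037. A_84_P11776 stood at -2.89 and -2.96 in control, -0.92 and -0.88 in ANAC096, -3.79 and -3.71 in ABA, and -3.12 and -3.18 in ANAC096+ABA. The probes just outside were A_84_P15543, a little under the limit and 2.000 when rounded, A_84_P586578 with 1.994 and A_84_P18714 with 1.993. A_84_P586578 stood at -7.72 and -7.27 in control, -5.15 and -5.39 in ANAC096, -7.14 and -7.40 in ABA, and -7.71 and -7.13 in ANAC096+ABA. On both sides of the limit ANAC096 was the highest group with no overlap, while the other 3 groups stood in a different order in these 2 probes.

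Members with 2 spots on the array give a second reading of the same RNA. There were 30, all among the 62 with matching replicates. The spots differed in their mean ANAC096 level by a median of 0.10 and by at most 0.84. In 24 of the 30 each spot alone reached 2 in all 3 differences, and the lowest value for any single spot was 1.73. Both spots entered the mean that chose the members, so these values are set in part by the rule and are no separate check.

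**Figure D2:**
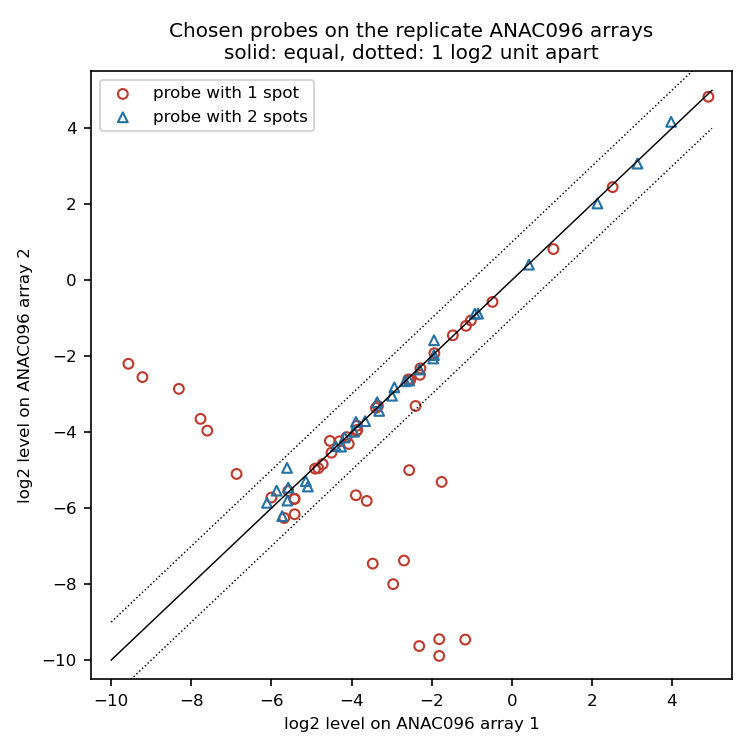
Level of each of the 79 chosen probes on ANAC096 array 1 (horizontal axis) and array 2 (vertical axis), in log2 units above the 75th percentile. Circles are probes with 1 spot and triangles probes with 2 spots. All 30 probes with 2 spots lie within 1 log2 unit of equality, and the 17 points outside the dotted lines are all circles.

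The 17 members with unmatched ANAC096 replicates were each read against their neighbours on the slide, within 3 rows and 2 columns, a window chosen after the values were seen. Over all non-control spots, 2.45% were brighter by over 1 log2 unit on ANAC096 array 1 than on array 2, and 1.64% the reverse. Around the 11 members that were bright on array 1, 58 of 310 neighbouring spots (18.7%) were brighter on array 1 and 10 (3.23%) on array 2. Around the 6 members that were bright on array 2, 27 of 190 (14.2%) were brighter on array 2 and 5 (2.63%) on array 1. Around the 62 members with matching replicates the shares were 2.75% and 2.38% of 2982 spots. Those shares are pooled, members were not counted as neighbours, and single spots varied. Around A_84_P14823 it was 0 of 34 either way. The spot of A_84_P15996 in row 333 had 10 of 34 neighbours brighter on array 2 and 1 on array 1. For A_84_P11776 in row 363 it was 6 of 32 and 0. In 15 of the 17 more neighbours leaned the member's way than the other. The exceptions were A_84_P851977, with 3 each way, and A_84_P527816, with 2 its way and 4 the other. The part of slide position in these 17 signals was not tested beyond these counts.

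Grid column 9 held 3 of the 17. A_84_P844417, in row 355, stood at -2.69 on ANAC096 array 1 and -7.38 on array 2, with the other 6 arrays between -7.76 and -7.06. A_84_P837504, in row 356, stood at -1.75 and -5.31, with the others between -7.44 and -6.56. A_84_P14051, in row 359, stood at -2.31 and -9.63, with the others between -10.13 and -8.96. In all 3 the bright reading was on ANAC096 array 1. Of the 35 spots in rows 340 to 374 of that column, 14 were brighter by over 1 log2 unit on ANAC096 array 1 than on array 2, and 11 of those 14 were not members. None was brighter by that much on array 2 (0 of 35), and the control arrays differed by over 1 log2 unit at 3 of the 35.

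**Figure D3:**
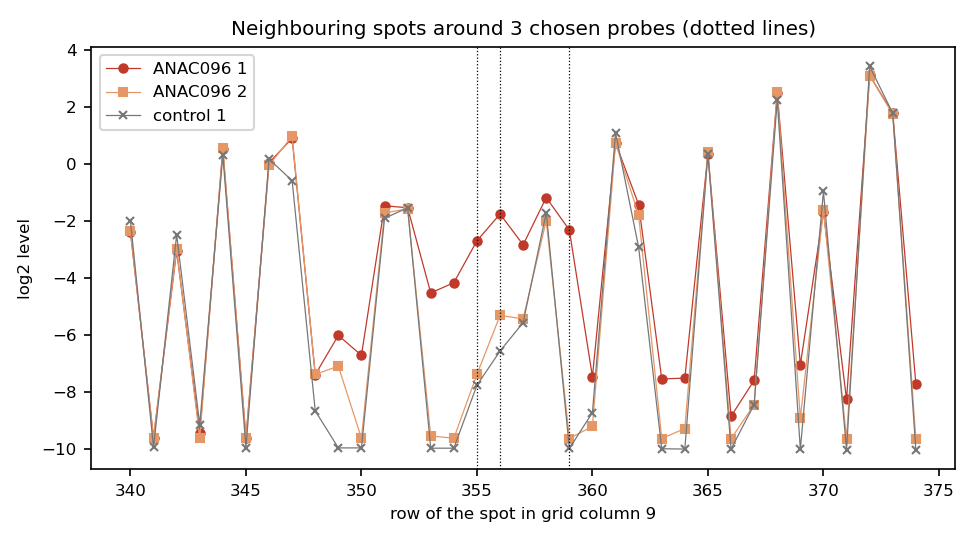
Level of the neighbouring spots in grid column 9 by their row on the slide (horizontal axis), as log2 signal relative to the 75th percentile, on ANAC096 array 1, ANAC096 array 2 and control array 1. Dotted lines mark 3 chosen probes in rows 355, 356 and 359. ANAC096 array 1 departs from the other curves over these rows, at spots of members and non-members, and 14 of the 35 spots are over 1 log2 unit brighter on it than on array 2.

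The question left by the rule is where the ANAC096+ABA group stood relative to the 2 empty-vector groups. The rule set no direct limit on those differences, but all 8 arrays entered it, and it required ANAC096+ABA to be at least 2 below ANAC096. Both comparisons use the same ANAC096+ABA arrays. The counts below are therefore not independent of the choice of members. They come from limma fitted across 34503 probes, each well above background on both arrays of 1 or more groups, with Benjamini-Hochberg adjusted p under 0.05 as a call. An adjusted p printed beside a bound belongs to the difference as measured, dim groups included, and not to the bound. Of the 79 members 67 were tested, and 28 of these 67 passed the filter only through ANAC096, the group in which the rule made them high.

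Against control, 38 members had 1 or both of the compared groups well above background on both arrays. Of these, 26 were called (68.4%, against 61.8% of all such probes), with 12 higher, against a background of 24.7%, and 14 lower, against 37.2%. Their median difference was -0.09, the same as the -0.09 over all such probes, and they ran from -2.81 to 2.11 as measured, dim groups included. Since the rule used the same arrays, nothing is read from the shares called. Over all 67 tested members 33 were called, 16 higher and 17 lower, and with normexp background correction of the median signals 18 higher and 10 lower. Of all tested probes 61.4% were called, and nothing is read from the 33, since it includes members that were dim in both groups.

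Against ABA, 31 members had 1 or both of the compared groups well above background on both arrays. Of these, 23 were called (74.2%, against 45.7% of all such probes), with 14 higher, against a background of 22.7%, and 9 lower, against 23.0%. Their median was 0.16 against -0.02 over all such probes, and they ran from -2.36 to 2.61 as measured, dim groups included. Here too the rule used the same arrays, and nothing is read from the shares called. Over all 67 tested members 30 were called, 16 higher and 14 lower, and with normexp 12 higher and 16 lower. The share called among all tested probes was 44.6%, and nothing is read from the 30, since it too includes members that were dim in both groups. Only 6 of the 17 members with unmatched ANAC096 replicates were tested, and none of the 6 was called in either comparison (0 of 6). The gap between their replicates enters the standard error, which was 1.03 in A_84_P837504, so the absence of calls there shows nothing.

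In both comparisons 30 members had a group well above background on both arrays. In 10 of the 30, ANAC096+ABA was called higher than both control and ABA, so the peak of the ANAC096 line was reduced with ABA there and not absent. Of all probes measured in this way 16.8% were called higher in both. The rule chose the members on the same arrays, so nothing is read from the count of 10 against that share. On the linear scale, 3.41% to 16.7% (median 8.80%) of the rise of ANAC096 over control was left in ANAC096+ABA, measured over the same control arrays. The rule held ANAC096+ABA at least 2 log2 units below ANAC096, so the choice of members bounded this share from above. A_84_P14823 stood at 1.25 and 1.15 in control, 4.91 and 4.83 in ANAC096, 1.07 and 1.08 in ABA, and 2.40 and 2.46 in ANAC096+ABA. The 2 empty-vector groups were together at the bottom, ANAC096+ABA was clear of them, and ANAC096 was clear of all. ANAC096+ABA exceeded control by 1.23 ± 0.06 (SE, adjusted p = 9.9e-06) and ABA by 1.35 ± 0.06 (adjusted p = 1.8e-05, limma).

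A_84_P812392 stood at 0.13 and 0.08 in control, 3.98 and 4.17 in ANAC096, -0.05 and -0.09 in ABA, and 1.33 and 1.40 in ANAC096+ABA. A_84_P293424 stood at -2.01 and -2.11 in control, 2.52 and 2.45 in ANAC096, -1.95 and -2.07 in ABA, and -0.08 and 0.14 in ANAC096+ABA. Both had the same order, with no overlap between ANAC096+ABA and any other group. The difference from control was 1.26 ± 0.07 (adjusted p = 2.5e-05, limma) in A_84_P812392 and 2.09 ± 0.09 (adjusted p = 6.8e-06) in A_84_P293424, and from ABA it was 1.44 ± 0.07 (adjusted p = 3.2e-05) and 2.04 ± 0.09 (adjusted p = 2.0e-05).

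A_84_P14326, with the most left of the 10 at 16.7%, stood at -6.81 and -6.52 in control, -2.29 and -2.49 in ANAC096, -6.63 and -6.58 in ABA, and -4.58 and -4.70 in ANAC096+ABA. A_84_P20603, with the least left at 3.41%, stood at -7.72 and -7.84 in control, -1.14 and -1.20 in ANAC096, -8.35 and -8.21 in ABA, and -5.48 and -5.86 in ANAC096+ABA. In both, ANAC096+ABA lay between ANAC096 and the empty-vector groups on every array. A_84_P14326 exceeded control by 2.02 ± 0.11 and ABA by 1.97 ± 0.11, which became 1.22 and 1.23 in the authors' deposited table and 1.25 and 0.99 with normexp. A_84_P20603 was not well above background in ABA, and ANAC096+ABA was at least 4.11-fold over that group (adjusted p = 3.2e-05, limma). It exceeded control by 2.11 ± 0.13, or by 0.93 in the authors' table and 0.99 with normexp. Over ABA its measured difference of 2.61 became 1.33 in the authors' table and 1.04 with normexp.

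Differences under 1 log2 unit were found in A_84_P284310, A_84_P15996 and A_84_P15361, each with 2 spots. A_84_P284310 stood at -0.12 and -0.06 in control, 3.14 and 3.07 in ANAC096, -0.06 and -0.03 in ABA, and 0.50 and 0.48 in ANAC096+ABA. A_84_P15996 stood at -0.43 and -0.47, 2.14 and 2.02, -0.63 and -0.64, and -0.02 and 0.05 in the same order of groups. In these probes the ANAC096+ABA arrays were above all 4 empty-vector arrays by well under 1 log2 unit. In A_84_P15996 and A_84_P15361 the rule allowed little more. ANAC096 was 2.53 and 2.74 above control there, and ANAC096+ABA had to be at least 2 below ANAC096. The difference from control was 0.58 ± 0.05 (adjusted p = 9.9e-05, limma) in A_84_P284310, 0.47 ± 0.06 (adjusted p = 7.1e-04) in A_84_P15996 and 0.63 ± 0.07 (adjusted p = 4.6e-04) in A_84_P15361. The remaining members of this set were A_84_P14296, which exceeded control by 0.98 ± 0.10 (0.51 in the authors' table) and ABA, where it was well above background on 1 array, by 1.08 ± 0.10 (0.47 with normexp), and A_84_P579344. A_84_P579344 stood at -6.13 and -6.44 in ABA and -5.95 and -5.73 in ANAC096+ABA, and its difference of 0.44 ± 0.12 from ABA (adjusted p = 0.0295, limma) was not called without ABA replicate 2 (0.29, adjusted p = 0.123) or without ANAC096+ABA replicate 2 (0.34, adjusted p = 0.137).

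In 8 of the same 30 members ANAC096+ABA was called lower than both control and ABA, against 18.6% of all probes measured in this way. That the ANAC096 line was above the empty vector without ABA was fixed by the rule. The side taken with ABA was left only in part to the data, since the rule held ANAC096+ABA at least 2 below ANAC096. Members with ANAC096 little over 2 above control and ABA could hardly have risen over those groups with ABA. Among the 8 these included A_84_P552006 (2.03 and 2.06) and A_84_P751939 (2.04 and 2.05). The count of 8 is thus set in part by the rule, and nothing is read from it against the 18.6%. A_84_P11143 stood at -2.45 and -2.22 in control, 1.04 and 0.82 in ANAC096, -3.11 and -3.26 in ABA, and -5.10 and -5.19 in ANAC096+ABA. The 4 groups were fully separated, with ANAC096 at the top and ANAC096+ABA at the bottom, and the probe was well above background on all 8 arrays. ANAC096 was 9.61-fold over control, while ANAC096+ABA differed by -2.81 ± 0.11 from control (adjusted p = 5.3e-06, limma) and by -1.96 ± 0.11 from ABA (adjusted p = 5.0e-05).

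A_84_P581506 stood at -4.33 and -4.32 in control, -1.47 and -1.45 in ANAC096, -3.59 and -3.45 in ABA, and -5.49 and -5.63 in ANAC096+ABA. A_84_P525908 stood at -7.19 and -7.08 in control, -4.30 and -4.24 in ANAC096, -6.52 and -6.53 in ABA, and -9.25 and -8.53 in ANAC096+ABA. In both, ABA was above control and ANAC096+ABA was the lowest group with no overlap. A_84_P581506 differed from ABA by -2.04 ± 0.07 (adjusted p = 9.8e-06, limma) and from control by -1.24 ± 0.07 (adjusted p = 2.4e-05). A_84_P525908 was not well above background in ANAC096+ABA. ANAC096 was at least 15.1-fold over that group, ABA at least 3.15-fold (adjusted p = 3.3e-04, limma) and control at least 2.06-fold (adjusted p = 6.9e-04). As measured, ANAC096+ABA differed there by -1.75 from control and -2.36 from ABA. Those differences became -0.72 and -0.83 in the authors' table, and -0.53 and -0.84 with normexp.

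A_84_P751939, with 2 spots, stood at -6.01 and -6.02 in control, -3.94 and -3.99 in ANAC096, at a mean of -6.02 ± 0.02 (SD, n = 2) in ABA, and at -7.32 and -7.20 in ANAC096+ABA. ABA and control were level, and ANAC096+ABA lay below both on each array but was not well above background. Control was at least 2.38-fold over it (adjusted p = 8.8e-06, limma) and ABA at least 2.36-fold (adjusted p = 2.3e-05). As measured, ANAC096+ABA differed by -1.25 from control and -1.24 from ABA. Those differences became -0.73 and -0.62 in the authors' table, and -0.53 and -0.64 with normexp. A_84_P24130 differed by -0.53 ± 0.05 from control and -0.83 ± 0.05 from ABA, and A_84_P552006 by -0.67 ± 0.08 and -0.63 ± 0.08. With normexp the differences from control were -0.28 in A_84_P24130 and -0.38 in A_84_P552006. Smaller or more variable was A_84_P19205, whose ANAC096+ABA arrays read -6.89 and -7.65, with 1 of them well above background. It differed by -1.01 ± 0.23 from control (-0.40 in the authors' table, and not called at -0.29 with normexp) and -0.89 ± 0.23 from ABA (adjusted p = 0.0230, limma), and was not called against ABA without ABA replicate 1 (adjusted p = 0.0646) or without ABA replicate 2 (adjusted p = 0.104).

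A_84_P146938 differed from control by -0.69 ± 0.06 (adjusted p = 1.1e-04, limma), and from ABA by only -0.19 ± 0.06 (adjusted p = 0.0375), a difference that turned to 0.07 when arrays were scaled to spike-in RNA. Leaving out either ABA, ANAC096 or ANAC096+ABA array ended its call against ABA, with adjusted p from 0.0568 without ANAC096 replicate 1 or 2 to 0.200 without ABA replicate 1. It was 0.0653 without ABA replicate 2, 0.163 without ANAC096+ABA replicate 1 and 0.0629 without ANAC096+ABA replicate 2. The direction against control was unchanged in each of these.

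**Figure D4:**
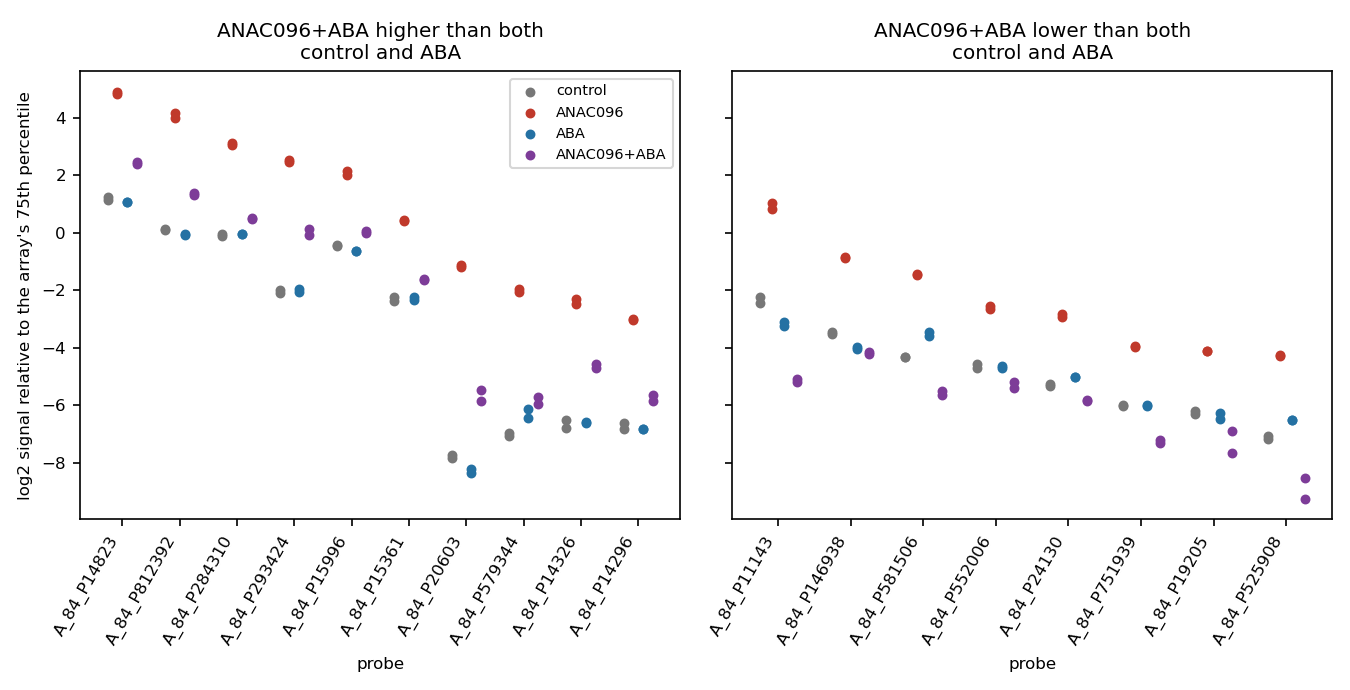
Level on each array (points, log2 signal relative to the 75th percentile) of the 10 probes in which ANAC096+ABA was called higher than both control and ABA (left) and the 8 in which it was called lower than both (right). Colours give the 4 groups of 2 arrays. ANAC096 is the highest group at every probe. On the left ANAC096+ABA lies between it and the other groups, and on the right ANAC096+ABA is at the bottom.

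Other members were called in 1 of the comparisons, in opposite directions, or with a signal not well above background in a group. A_84_P18924 stood at -7.82 and -8.11 in control, -2.58 and -2.61 in ANAC096, -6.73 and -6.46 in ABA, and -7.97 and -8.39 in ANAC096+ABA. ABA was above control there, by a difference within the limits of the rule, and ANAC096+ABA was below ABA and overlapped control. It was not well above background in control or in ANAC096+ABA, so those groups are not set against each other, and ABA was at least 2.97-fold over ANAC096+ABA (adjusted p = 6.7e-04, limma). The measured difference of ANAC096+ABA from ABA, -1.58, became -0.59 in the authors' table and -0.63 with normexp. A_84_P11776 went both ways, differing by -0.23 ± 0.05 from control (adjusted p = 0.0104, limma) and 0.60 ± 0.05 from ABA (adjusted p = 2.6e-04). The difference from control was not called with spike-in scaling (-0.29, adjusted p = 0.0854, limma).

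A_84_P221516 stood at -7.15 and -6.79 in control, -3.66 and -3.71 in ANAC096, -7.81 and -7.90 in ABA, and -9.35 and -9.27 in ANAC096+ABA. A_84_P839042 stood at -7.76 and -7.51 in control, -5.14 and -5.29 in ANAC096, -7.60 and -7.51 in ABA, and -9.45 and -9.33 in ANAC096+ABA. Neither was well above background on any array with ABA. A_84_P221516 was so on both control arrays, and control was at least 2.32-fold over ANAC096+ABA (adjusted p = 1.3e-05, limma). Its measured difference of ANAC096+ABA from control, -2.34, became -0.93 in the authors' table and -0.69 with normexp. A_84_P839042 was well above background on 1 control array and passed the filter only through ANAC096, so its other groups are given as levels alone. In A_84_P787940, described above, control was at least 1.53-fold over ANAC096+ABA (adjusted p = 0.00273, limma), and this was not called with normexp (adjusted p = 0.698).

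A_84_P269530 stood at -9.98 and -10.11 in control, -4.39 and -4.37 in ANAC096, -9.13 and -9.37 in ABA, and -7.76 and -7.77 in ANAC096+ABA. The ANAC096+ABA arrays were above all 4 empty-vector arrays, but none of the 3 groups was well above background (0 of 6 arrays), and the probe passed the filter only through ANAC096. No fold or call is given between those groups, and ANAC096 was at least 10.5-fold over ANAC096+ABA.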

How the data were processed

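Per the file headers, the authors' scanner outputs were extracted with Feature Extraction 10.7.1.1 on array design 031025, and hold spot intensity values on a linear scale, background-subtracted in the processed signal. Other columns of the deposited files are flags of 0 or 1 for outlier, saturated and well above background spots. A deposited table of the authors' log2 values served as an alternative. Groups and replicate numbers came from the titles.

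From these, log2 processed signal minus the 75th percentile over all spots of the array was averaged over the spots of a probe. Membership used every non-control spot. The fit left out outlier spots, which 6 members had. A model of the 4 group means was fitted to the 8 arrays in R 4.3.3 by limma 3.58.1 (lmFit, eBayes; 4 residual and 1.99 prior degrees of freedom), with Benjamini-Hochberg adjustment over 34503 probes at 0.05. Standard errors are limma's, and precision is limited by the small number of arrays. The code was tested on simulated data.

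Named were the 12 members with the widest gap to the other 6 arrays, the 3 probes on either side of the limit of 2, up to 5 called members with the largest and smallest difference in each comparison, the 10 with the highest ANAC096 level, and every member called in the same direction in both comparisons with a signal well above background in at least 1 group of each. Other members are named where their slide position was described, after their values were seen. The members, lists and tests were chosen with earlier results of these data known. The planned gene lists and markers were not analysed here, since the files do not pair probes with genes.

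The titles number replicates 1 and 2 in each group. Deviations of same-numbered arrays correlated between -0.09 and 0.06 across the 6 pairs of groups, so the numbers were not used as a block in the reported fit. Alternatives were other normalizations and background corrections, the deposited log2 table, other filters, a replicate block and leaving out each array.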

Additional observations from a re-analysis of the deposited data

How the results depend on the processing

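Against control, the 33 calls (16 higher, 17 lower) became 17 (10 and 7) when only the 22 members well above background on all arrays were tested, an alternative with fewer probes, and the lower calls became 10 with normexp. Against ABA, the 30 calls became 17 and the 14 lower calls 6 with that filter. Leaving out 1 array gave 30 to 35 calls against control (16 to 18 higher, 14 to 19 lower) and 25 to 34 against ABA (13 to 17 higher, 12 to 17 lower). In those fits the lone array of a group is assumed to vary like the other groups. The replicate block gave 33 and 27 calls, though the check of the numbers gives no basis for pairing the arrays. It ended the calls of A_84_P579344 (adjusted p = 0.0510, limma) and A_84_P146938 (adjusted p = 0.0627) against ABA. Differences shrank by over 1.5 times in the authors' table and with normexp: against control, 4 of the 10 members higher than both groups in each, and 4 and 5 of the 8 lower than both. The other alternatives stayed within 1.5 times of the reported counts. Of the 10 members higher than both groups, A_84_P579344 was the only one to lose a call in any setting in which it was tested, and of the 8 lower than both, A_84_P146938 and A_84_P19205 were. With all arrays, A_84_P19205 was not called against control with normexp (adjusted p = 0.0562, limma). Against ABA, A_84_P579344 was not called with normexp (0.13, adjusted p = 0.188) or without the filter on dim probes (adjusted p = 0.0531). A_84_P146938 was not called against ABA without that filter (adjusted p = 0.0599).

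Membership depended more on the processing. The rule was met by 36 probes in the authors' table (32 of them members) and by 38 with normexp (32 members). The cause was not tested. Without ANAC096 replicate 1 it was met by 134 probes (66 members) and without ANAC096 replicate 2 by 171 (70 members). Leaving out any of the other 6 arrays gave 78 to 80. Spike-in scaling, which shifted the median probe by -0.58 for ANAC096 against control, -0.51 against ANAC096+ABA, -0.26 against ABA, and by 0.25 for ANAC096+ABA against ABA, was met by 67 (44 members). Normexp on the mean signal was not run, since the files used here hold median signals. Normexp on the median signals and the split by matching replicates were chosen after seeing the data.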
